A study of Homo sapiens with 2 samples.

Results

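Splicing events of 34 genes for long non-coding RNAs were examined, 17 of them host genes of small nucleolar RNAs (snoRNAs). The members were taken as a fixed list of symbols, and a row of the event tables belonged to a member when it carried that member's Ensembl gene identifier. Of the 34 members, 25 had at least 1 listed event, against 8028 genes with an identifier in all and 214 genes that GENCODE v29 annotates as long non-coding. SNHG32 is protein-coding in that annotation, under the name C6orf48, so it is not among the 214. The data were lists of alternative splicing events from long-read isoform sequencing (PacBio Iso-Seq, which reads whole transcripts as single molecules) of AC16, an established human cardiomyocyte cell line. One library, DCRT-KO, came from cells whose gene for the long non-coding RNA DCRT was disrupted by CRISPR-Cas9, and the other from cells of genotype WT. How many clones the DCRT-KO cells came from is not given in the sources used here, and DCRT itself was not analysed here. With 1 library per genotype there was no replicate check and no test, so each difference below is a difference between these 2 libraries.

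snoRNAs are short RNAs that guide chemical modification of ribosomal and spliceosomal RNA. In vertebrates most of them lie inside introns of a host gene, and they are released by trimming the intron after it has been spliced out. Many host genes encode no protein, and their spliced RNA is often a substrate of nonsense-mediated decay, which degrades RNAs as they are translated. A retained intron therefore keeps the snoRNA sequence inside a long transcript. Box C/D snoRNAs, named SNORD, carry a C box near the 5′ end and a D box near the 3′ end, and box H/ACA snoRNAs, named SNORA, have a different fold.

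GAS5 and SNHG1 carried most of the retained introns shared by both libraries, and the letters of their introns show what is kept when they stay in the RNA. The GAS5 intron at chr1:173866568-173866760 (hg38, minus strand, 193 bases) is shown whole and 5′ to 3′, with SNORD76 in capitals. It was listed as retained in both libraries.

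GAS5 SNORD76 intron: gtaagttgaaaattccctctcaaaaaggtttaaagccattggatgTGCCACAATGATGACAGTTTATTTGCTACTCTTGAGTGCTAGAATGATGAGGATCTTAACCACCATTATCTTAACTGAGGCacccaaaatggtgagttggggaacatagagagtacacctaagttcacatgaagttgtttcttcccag

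The intron begins with gt and ends with ag, as most introns do. Its last 14 bases also lay between a pair of alternative acceptors in the DCRT-KO library, where 1 isoform began its exon at the upstream site and 19 at the downstream one. Other snoRNAs in retained introns of these hosts are shown next, with the C box (TGATGA, searched in the first 20 bases) and the D box (CTGA, searched in the last 12 bases) in capitals. They are examples with both boxes whose introns were listed as retained in both libraries, and all lie on the minus strand of hg38.

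SNORD44 in GAS5, chr1:173865968-173866028: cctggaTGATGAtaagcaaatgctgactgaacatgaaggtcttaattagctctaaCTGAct
SNORD79 in GAS5, chr1:173865350-173865430: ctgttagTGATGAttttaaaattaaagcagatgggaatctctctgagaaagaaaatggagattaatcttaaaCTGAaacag
SNORD80 in GAS5, chr1:173864833-173864903: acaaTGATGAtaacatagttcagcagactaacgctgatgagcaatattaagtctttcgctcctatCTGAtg
SNORD81 in GAS5, chr1:173864146-173864222: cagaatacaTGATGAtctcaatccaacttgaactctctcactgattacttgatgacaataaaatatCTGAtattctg
SNORD25 in SNHG1, chr11:62855565-62855631: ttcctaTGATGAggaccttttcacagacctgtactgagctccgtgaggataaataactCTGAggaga
SNORD27 in SNHG1, chr11:62855012-62855083: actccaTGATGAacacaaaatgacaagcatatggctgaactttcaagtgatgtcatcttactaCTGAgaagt
SNORD29 in SNHG1, chr11:62853904-62853968: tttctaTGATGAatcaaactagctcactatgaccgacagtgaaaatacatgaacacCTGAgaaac

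Both boxes in exactly these letters were found in 16 of 24 SNORD genes of the hosts, or 66.7%. These were the ones whose letters could be read from GENCODE v29 transcripts, with SNHG14 and SNHG6 left out. The same search found them in 177 of 288 SNORD transcripts of GENCODE v29, or 61.5%.

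The tables give no read counts, so the depth behind an event is unknown, and each event is a pair of forms, and a form can rest on isoforms built from the library's reads, on annotated transcripts or on both. The whole DCRT-KO list held 42783 events and the whole WT list 35307, a ratio of 1.21, which is the level against which the members' numbers are read. The intervals below are exact binomial 95% intervals for counting error only. Events of 1 gene share isoforms, so these intervals are too narrow. The libraries also differed in markers of other cell types: 7 of 7 fibroblast markers had more events in WT, 567 against 5 in DCRT-KO, and 3 of 5 epithelial markers had more in DCRT-KO, 79 against 22. COL1A1 alone gave 405 of the 567 fibroblast marker events in WT. The epithelial markers EPCAM and CDH1 were not listed in either library. Both smooth muscle markers that were listed, of 4, had events in WT alone (0 against 34), and none of 3 endothelial markers was listed. Of 14 defining cardiomyocyte markers only 2, NPPB and MYL3, were listed, with 3 events in WT and 0 in DCRT-KO. Whether these differences had a part in the results below was not tested, and with bulk RNA fewer cells of a type cannot be told apart from less RNA per cell.

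The members together had 234 events in the DCRT-KO library and 135 in the WT library, a ratio of 1.73 (1.40 to 2.16). Of the 25 listed members, 15 had more events in DCRT-KO, 7 had more in WT and 3 had equal numbers. Over all 8028 genes, 52.4% had more events in DCRT-KO, 37.4% had more in WT and 10.3% had equal numbers. The median difference per listed member, DCRT-KO minus WT, was 1 event, which is also the median over all genes. As one group the members thus stood near the background by count of genes.

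In total number of events, the snoRNA hosts and the other members went opposite ways. RefSeq places at least 1 snoRNA in the span of 17 members, 134 snoRNAs in all, of which 83 are in SNHG14. The 15 listed hosts had 217 events in DCRT-KO and 95 in WT, a ratio of 2.28 (1.79 to 2.94). Of these 15 hosts, 13 had more events in DCRT-KO and none had more in WT, with a median difference of 4 events. Of the 13, SNHG5, SNHG6, SNHG7, SNHG8, SNHG15 and ZFAS1 had no event with a library isoform on each form in either library. The hosts with equal numbers were SNHG16 with 7 and 7 and SNHG32 with 4 and 4. The 10 other listed members had 17 events in DCRT-KO and 40 in WT, a ratio of 0.425 (0.226 to 0.767), and 7 of these 10 had more in WT. Of the 7, MEG3 had 0 and 11 and OIP5-AS1 had 0 and 7, and the rest differed by at most 2 events. Long non-coding genes outside the members had 348 events in DCRT-KO and 237 in WT, a ratio of 1.47 (1.24 to 1.74). The split into hosts and others was made with the members' numbers known.

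**Figure D1:**
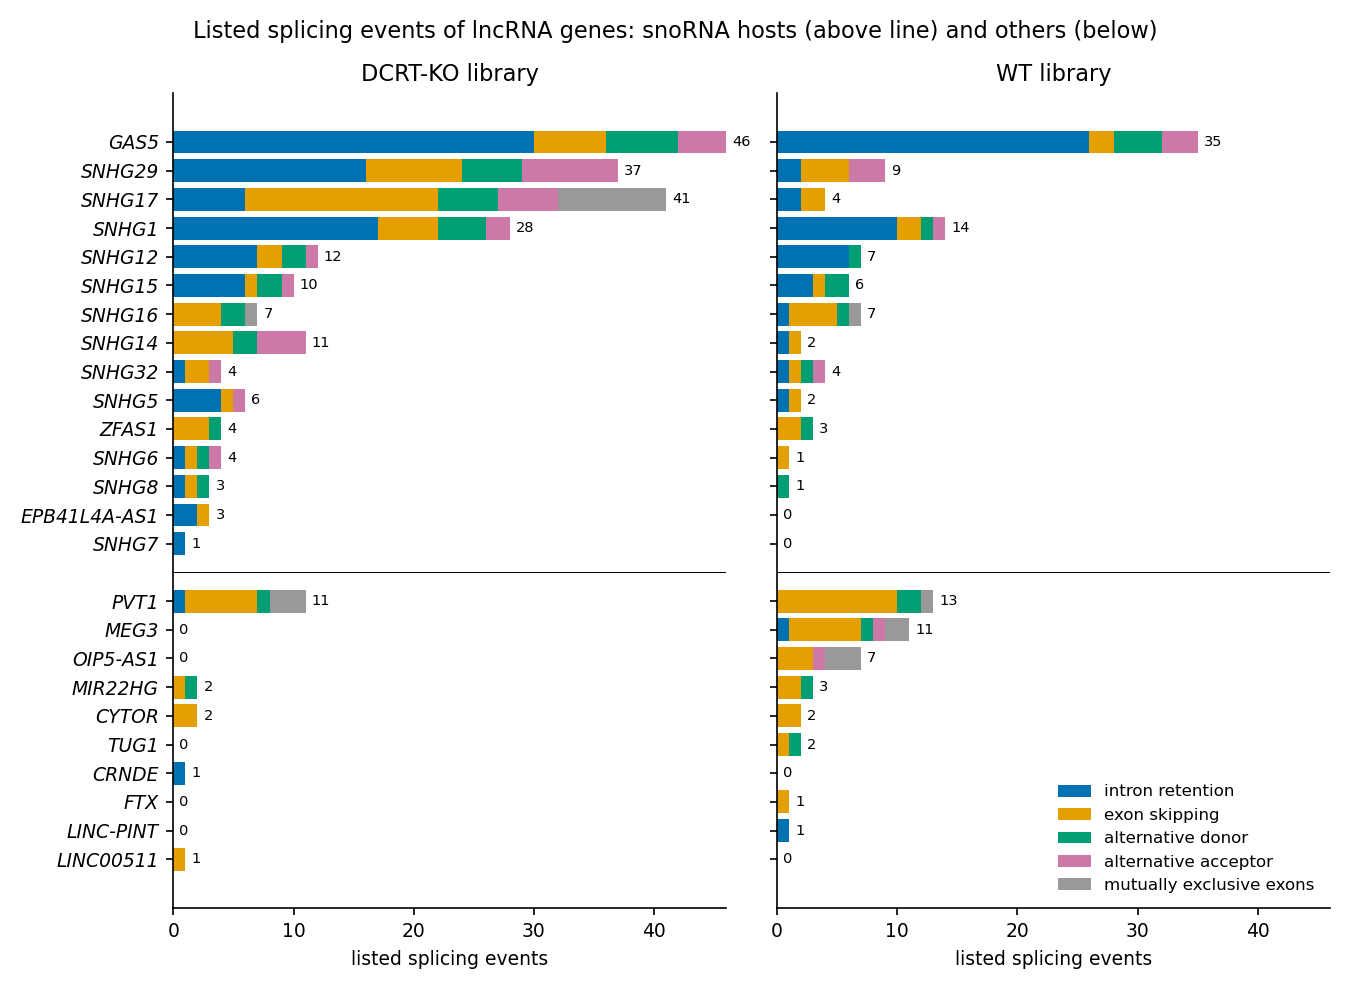
Events listed per member in the DCRT-KO library (left) and the WT library (right), in numbers of events, coloured by type of event. The snoRNA hosts above the line have totals at or above their WT totals in DCRT-KO, led by GAS5 with 46 and 35, and MEG3 and OIP5-AS1 below the line have no event in DCRT-KO.

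At a size of at least 2 times, among genes with at least 5 events over both lists, 6 of 16 members had more events in DCRT-KO and 2 of 16 had more in WT. Over the 4345 genes with that many events the shares were 34.3% and 19.6%. The 6 were all hosts, out of 12 hosts with at least 5 events, and the 2 were MEG3 and OIP5-AS1. Of 34 long non-coding genes outside the members with that many events, 16 (47.1%) passed in DCRT-KO and 10 (29.4%) in WT.

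**Figure D2:**
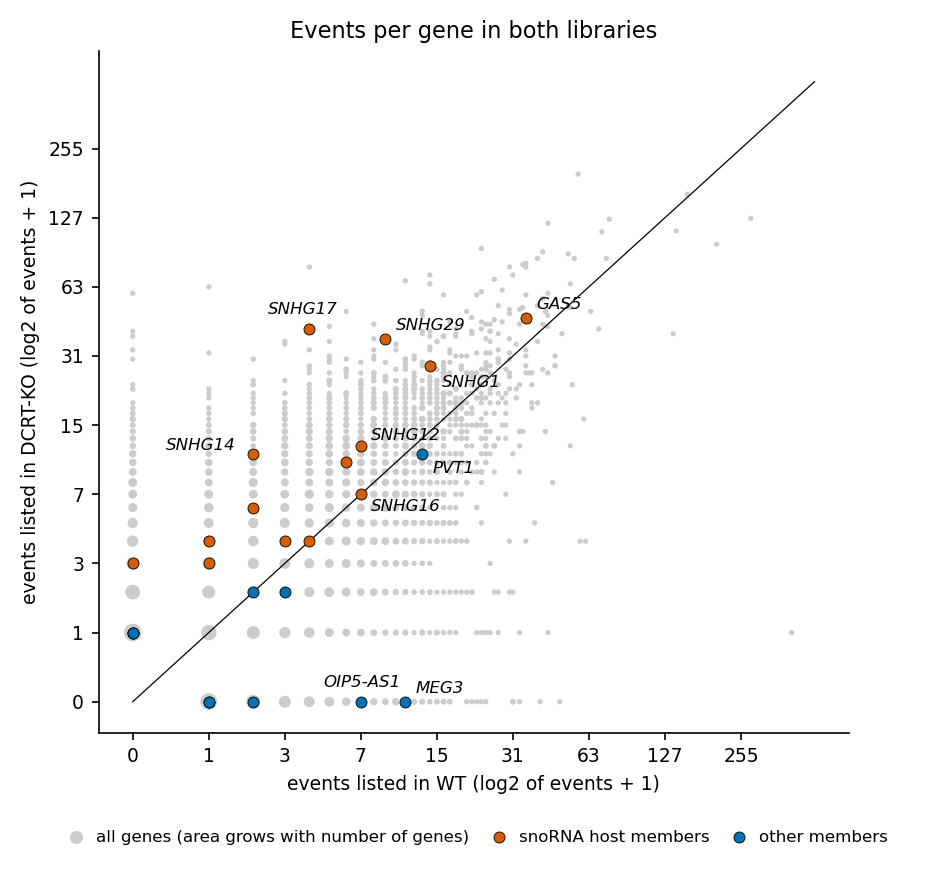
Events per gene in WT (horizontal) and in DCRT-KO (vertical), both as log2 of events plus 1 with tick labels in events, for all genes (grey) and members (coloured, some of which lie on the same point). The line marks equal numbers. No snoRNA host lies below it, and SNHG17 with 41 and 4 lies farthest above it among the labelled hosts.

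GAS5, a host of 11 snoRNAs named for its rise in growth-arrested cells, was the member with the most events, 46 in DCRT-KO against 35 in WT. Retained introns made up 30 of the 46 and 26 of the 35. Of its events 35 of 46 in DCRT-KO and 33 of 35 in WT were found at identical positions in the other list. In DCRT-KO 31 GAS5 isoforms entered the events and in WT 27, and 20 and 18 of them retained at least 1 intron that holds a snoRNA. A retaining isoform held a median of 2 snoRNAs in each library, with at most 5 in DCRT-KO and at most 3 in WT. The numbers of GAS5 isoforms and of retaining isoforms were thus close in both libraries.

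The SNORD76 intron printed above was retained by 7 isoforms and spliced by 19 in DCRT-KO, and retained by 5 and spliced by 19 in WT. The next intron, with SNORD77, was retained by 2 and spliced by 21 in DCRT-KO and retained by 3 and spliced by 19 in WT. Both of these introns were therefore spliced in most of the isoforms compared, in either library.

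Other GAS5 introns varied. The SNORD80 intron of 524 bases was retained by 9 isoforms and spliced by 12 in DCRT-KO, and retained by 7 and spliced by 3 in WT. The SNORD47 intron of 179 bases was retained by 4 and spliced by 3 in DCRT-KO and retained by 6 and spliced by 4 in WT. The SNORD81 intron, the last one listed, was retained by 5 and spliced by 13 in DCRT-KO and retained by 2 and spliced by 3 in WT. An isoform enters an event only where its ends allow the comparison, so these numbers are not levels of RNA.

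For the SNORD44 intron the spliced form was carried by 23 isoforms in DCRT-KO and by 2 in WT, and the retained form by 3 and 2. Retention of the SNORD78 intron was listed in DCRT-KO alone (1 retaining and 2 spliced isoforms), and retention of the SNORD75 intron in WT alone (2 and 2). In all, 9 of the 11 GAS5 snoRNAs lay in a listed retained intron, 8 in each library and 7 in both. The 2 that did not were SNORD74 and SNORA103. Only snoRNAs lying whole inside an intron were counted. SNORA103 (chr1:173866205-173866290) reaches just past the end of the retained SNORD77 intron (chr1:173866207-173866527).

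GAS5 also used a pair of donors 39 bases apart, at chr1:173865471-173865509, in both libraries. The 39 bases between them are in capitals, with the exon before them and the intron after them in lower case.

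GAS5 tandem donor: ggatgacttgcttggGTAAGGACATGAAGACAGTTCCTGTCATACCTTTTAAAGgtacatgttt

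Either donor is followed by gt. The upstream donor was used by 8 isoforms and the downstream donor by 12 in DCRT-KO, and by 10 and 8 in WT.

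SNHG1, the host of the U22 group of snoRNAs, had 28 events in DCRT-KO against 14 in WT, of which 17 and 10 were retained introns. All 14 WT events were also in the DCRT-KO list, and 16 of the 28 DCRT-KO events were in the WT list. Its 9 snoRNAs all lay in an intron listed as retained in DCRT-KO, and 7 of them in WT. At least 1 intron with a snoRNA was retained by 12 of 15 isoforms in DCRT-KO and by 5 of 8 in WT.

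The SNHG1 intron with SNORD28, of 336 bases, had the most retaining isoforms, 6 against 2 that spliced it, and it was listed in DCRT-KO alone. The introns with SNORD31 and SNORD22 were mostly spliced in DCRT-KO, by 10 and 9 isoforms against 1 and 2 that retained them. In WT the SNORD31 intron was retained by 1 and spliced by 3 isoforms, and the SNORD22 intron was spliced by 4 library isoforms, with retention carried only by annotated transcripts. Skipping of the 47-base and 51-base exons of SNHG1, printed here with the exon in capitals, was listed in both libraries.

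SNHG1 47-base exon, chr11:62854018-62854064 in capitals: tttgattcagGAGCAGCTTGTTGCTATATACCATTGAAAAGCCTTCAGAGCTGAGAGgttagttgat
SNHG1 51-base exon, chr11:62854888-62854938 in capitals: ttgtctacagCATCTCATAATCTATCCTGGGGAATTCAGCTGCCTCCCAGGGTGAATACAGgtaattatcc

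The 47-base exon was skipped by 2 isoforms and included by 8 in DCRT-KO, and skipped by 2 and included by 2 in WT. The 51-base exon was skipped by 2 and included by 4 in each library.

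**Figure D3:**
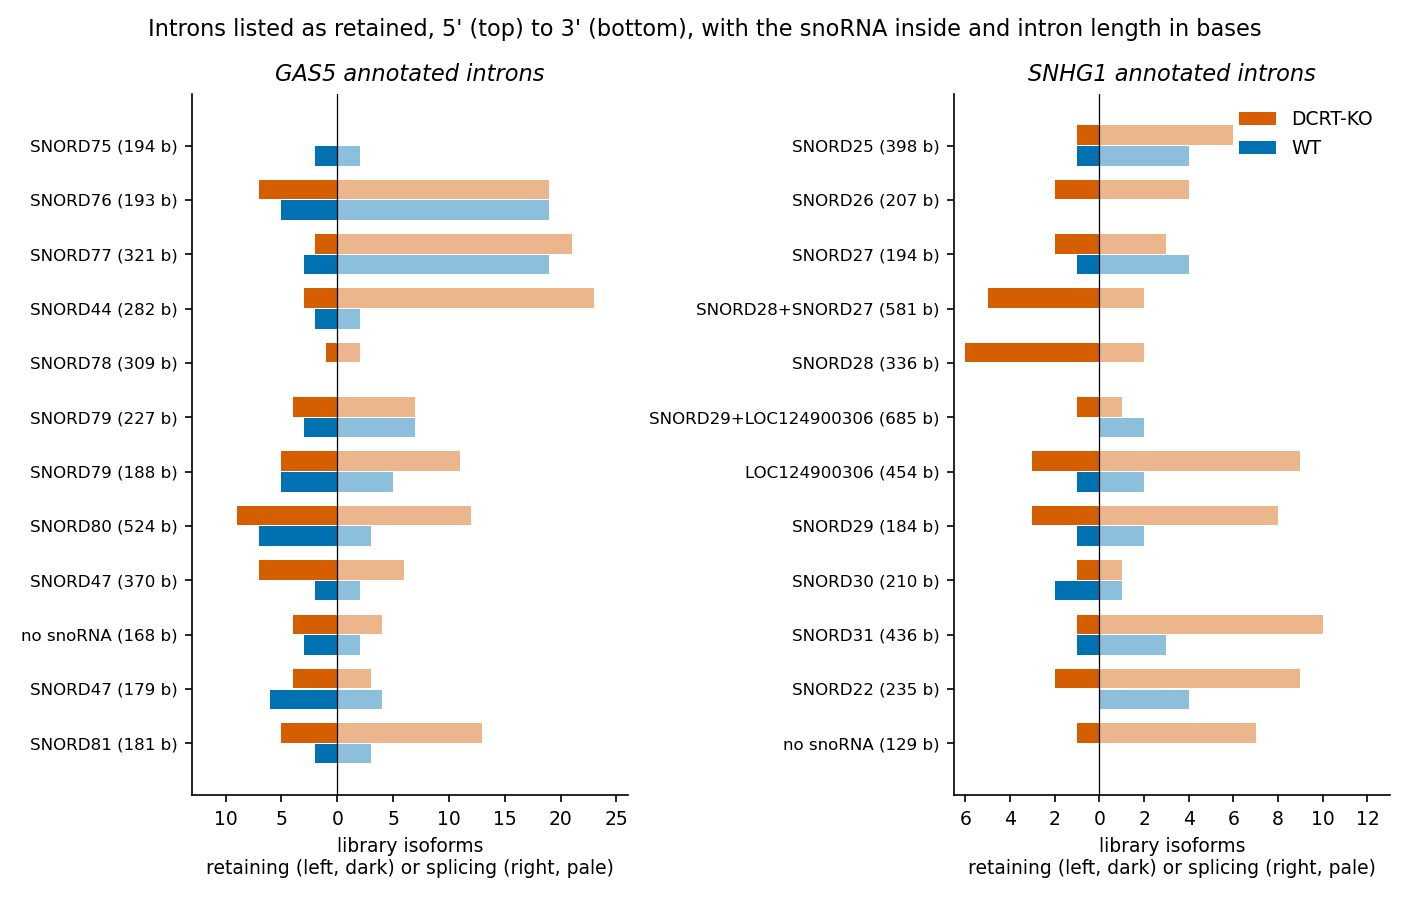
Library isoforms that retain (left of 0, dark) or splice (right of 0, pale) each annotated intron listed as retained, for GAS5 and SNHG1, in numbers of isoforms, with the snoRNA inside and the intron length in bases; an intron with no bar in a library was not listed there. In GAS5 the SNORD76 and SNORD77 introns are mostly spliced in both libraries, and in SNHG1 the SNORD28 intron has 6 retaining isoforms in DCRT-KO alone.

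SNHG17, a host of the SNORA71 family, had the largest difference, with 41 events in DCRT-KO against 4 in WT. Exon skipping made up 16 of the 41, retained introns 6, and mutually exclusive exons 9. In 24 of the 41 DCRT-KO events both forms were carried by annotated transcripts alone, and 17 events in DCRT-KO against 2 in WT had a library isoform on each form. The isoforms numbered 14 and 5. Skipping of the 114-base exon at chr20:38425935-38426048 was listed in both libraries. The skipped form was carried by 2 isoforms in DCRT-KO and the included form by 3, and in WT 1 isoform carried the included form. The 105-base intron at chr20:38420901-38421005 was retained by 2 isoforms and spliced by 8 in DCRT-KO, and by 1 and 1 in WT. Of 5 snoRNAs, SNORA71A and SNORA71C lay together in a retained intron of 4537 bases in DCRT-KO alone. The third with a listed retained intron was the snoRNA gene LOC124904974, in both libraries.

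SNHG29 had 37 events in DCRT-KO against 9 in WT, and 13 and 4 library isoforms entered them. Annotated transcripts alone carried both forms in 5 of the 37 and 6 of the 9. Retained introns made up 16 and 2 of them. All 9 WT events were in the DCRT-KO list. Events with a library isoform on each form numbered 16 in DCRT-KO and 1 in WT. All 3 of its snoRNAs (SNORD49A, SNORD49B and SNORD65) lay in retained introns in DCRT-KO, and the SNORD49 pair also did in WT, in the same intron of 770 bases. That intron was retained by 1 isoform and spliced by 6 in DCRT-KO, and retained by 2 in WT, where the spliced form was annotated only. Skipping of a 44-base exon at chr17:16439660-16439703 was carried by 7 isoforms in DCRT-KO and by annotated transcripts only in WT.

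SNHG12, which hosts 3 H/ACA snoRNAs and SNORD99, had 12 events in DCRT-KO and 7 in WT. Retained introns made up 7 and 6 of these. The introns with SNORA61, SNORA44 and SNORA16A were retained in both libraries, and the SNORD99 intron in WT alone, by 1 isoform. The 324-base SNORA61 intron was retained by 3 isoforms and spliced by 1 in DCRT-KO, and retained by 1 in WT. Most SNHG12 snoRNA introns were thus found in both lists on few isoforms.

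SNHG15, the host of SNORA9, had 10 events in DCRT-KO against 6 in WT, and all 6 of the WT events recurred in DCRT-KO. Retention of the 1455-base SNORA9 intron was carried by 1 isoform in each library. SNHG16, which hosts SNORD1 snoRNAs, had 7 events in each library, 6 of them at identical positions in the other, and no retained intron with a snoRNA. Its donors 4 bases apart, at chr17:76561399-76561402, were found in both, and the 4 bases are in capitals here.

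SNHG16 tandem donor: gccatgtctttaatGTGAgtaagtagac

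In DCRT-KO the upstream SNHG16 donor was used by 2 isoforms and the downstream one by 1, and in WT 2 isoforms used the upstream one.

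SNHG14, the long transcript of the imprinted Prader-Willi region that carries the SNORD116 and SNORD115 clusters, had 11 events in DCRT-KO against 2 in WT, with none in common. Exon skipping made up 5 of the 11, with 4 alternative acceptors and 2 alternative donors. Of its 83 snoRNAs only SNORD116-28 lay in a listed retained intron, of 2193 bases, in WT and on 1 isoform. Its span also holds other annotated genes, and 1 further DCRT-KO event there was listed under SNRPN.

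By number of listed events, the hosts with fewer events went the same way or were equal. SNHG5 had 6 events in DCRT-KO and 2 in WT, all carried by annotated transcripts alone. SNHG6 had 4 and 1, SNHG8 had 3 and 1, ZFAS1 had 4 and 3, EPB41L4A-AS1 had 3 and 0, and SNHG7 had 1 and 0. The SNHG8 events too were carried by annotated transcripts alone. None of the events of SNHG6, SNHG7 or ZFAS1 had a library isoform on each form. Retention of the SNORD87 intron of SNHG6 and of the SNORA13 intron of EPB41L4A-AS1 was carried by 1 isoform each, in DCRT-KO. ZFAS1, which hosts the SNORD12 snoRNAs, had 3 exon skipping events and 1 alternative donor in DCRT-KO and no retained intron in either library.

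Among the members without a snoRNA, MEG3, a maternally expressed RNA of an imprinted locus, had 11 events in WT but 0 in DCRT-KO. By type, 6 were exon skipping, 2 mutually exclusive exons and 1 of each other type. Of the 11, 4 rested on annotated transcripts alone and 2 had a library isoform on each form. In all, 7 library isoforms entered the MEG3 events. Skipping of the 114-base exon at chr14:100831421-100831534 took 3 of the 11 rows. OIP5-AS1, an abundant cytoplasmic RNA, had 7 events in WT, from 7 isoforms, but 0 in DCRT-KO. These 7 were 3 skipped exons, 3 mutually exclusive pairs of the same exons and 1 alternative acceptor 66 bases apart. An absence from a list of events does not show that the gene was not expressed, because a gene with 1 form has no event.

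PVT1, which lies beside MYC, had 11 events in DCRT-KO and 13 in WT, from 13 and 10 isoforms. Exon skipping made up 6 and 10 of them, and 4 events were at identical positions in both lists. One of these, skipping of a 115-base exon, was carried by 6 isoforms in DCRT-KO and 2 in WT, with 1 including isoform in each. Most of its events were thus listed in 1 library only.

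Of the remaining non-hosts, MIR22HG, the host of miR-22, had 2 events in DCRT-KO against 3 in WT, and CYTOR had 2 and 2 at identical positions. TUG1 had 0 and 2, and FTX and LINC-PINT had 0 and 1 each. CRNDE and LINC00511 had 1 and 0 each. No event was listed under SNHG3, SNHG20, DANCR, MALAT1, NEAT1, H19, NORAD, MIAT or MIR17HG. MALAT1, NEAT1 and NORAD are known mainly as RNAs of a single exon. Inside the span of SNHG3, 1 event in each library was listed under its overlapping neighbour RCC1.

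By type, the members had 94 retained introns in DCRT-KO and 55 in WT, 66 and 46 skipped exons, 33 and 17 alternative donors, 28 and 10 alternative acceptors, and 13 and 7 mutually exclusive pairs. Intron retention made up 40.2% (33.8 to 46.8) of the members' events in DCRT-KO and 40.7% (32.4 to 49.5) in WT, against 28.6% and 35.1% of the whole lists. Among the hosts it was 42.4% (35.7 to 49.3) in DCRT-KO and 55.8% (45.2 to 66.0) in WT. For long non-coding genes outside the members it was 11.5% (8.34 to 15.3) in DCRT-KO and 15.6% (11.2 to 20.9) in WT. Exon skipping made up 28.2% (22.5 to 34.4) and 34.1% (26.1 to 42.7) of the members' events, against 39.7% and 34.5% of the whole lists. Without GAS5 the members' WT share of retention was 29%, outside the interval with it.

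The retained introns of the hosts were mostly the ones with snoRNAs. The intron held a snoRNA in 76 of 92 retention events of the hosts in DCRT-KO, or 82.6% (73.3 to 89.7), and in 45 of 53 in WT, or 84.9% (72.4 to 93.2). In genes outside the members the shares were 2.15% of 12130 events and 0.713% of 12346. Hosts were defined by a snoRNA in their span, so a higher share than in other genes was set by that definition. Among other types of host events the segment held a snoRNA in 4 of 56 and 1 of 21 skipped exons, and in 14 of 28 and 5 of 8 alternative acceptors. For alternative donors the numbers were 11 of 31 and 2 of 12, and for mutually exclusive exons 0 of 10 and 0 of 1.

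Host introns hold snoRNAs often to begin with. In the GENCODE v29 annotation of the hosts other than SNHG14, 112 introns (61.2%) hold a snoRNA and 71 do not, counting each pair of ends once. Of the 112, 44 were listed as retained in DCRT-KO, 27 in WT and 47 in either, or 42.0%. Of the 71 without a snoRNA, 11 were listed in DCRT-KO, 7 in WT and 13 in either, or 18.3%. Among introns of at most 1000 bases, a limit chosen after seeing the data, the shares were 41 of 74 (55.4%) and 13 of 53 (24.5%). Some of the listed retained forms, such as those of the SNORD50B introns of SNHG5 in DCRT-KO, were carried by annotated transcripts alone. Annotated introns of 1 gene overlap, so they are not independent. GAS5 and SNHG1 weighed heavily in these shares. Without them, 23 of 79 snoRNA introns (29.1%) and 9 of 63 others (14.3%) were listed in DCRT-KO. In WT the shares without them were close, 9 of 79 (11.4%) and 6 of 63 (9.52%).

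Counted by snoRNA, 32 of the 51 in hosts other than SNHG14 lay in a listed retained intron in DCRT-KO, 24 in WT, 22 in both and 34 in either. None of the snoRNAs of SNHG16, SNHG8 or ZFAS1 did. For SNORD50B and SNORA17A in DCRT-KO and SNORD22 in WT no library isoform carried the retained form. In the whole series a snoRNA lay in the intron of 337 retention events of DCRT-KO and 133 of WT, and the members gave 22.6% and 33.8% of these. The genes outside the members with most such events were HSPA8, a chaperone gene, with 61 in DCRT-KO and 9 in WT, and EIF4A2, a translation initiation factor gene, with 31 and 12. More events with a snoRNA in DCRT-KO were thus not particular to the members.

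Retained segments of the members were annotated introns far more often than in the lists as a whole, in 93.6% (86.6 to 97.6) of events in DCRT-KO and 92.7% (82.4 to 98.0) in WT, against 48.2% and 46.9%. Their median length was 330 bases in DCRT-KO and 321 in WT. Of 73 distinct retained segments, the end letters of 59 could be read from annotated exons, and 57 of these began with gt and ended with ag. For the 51 annotated introns among the 59 the count was 51, and for the 8 others it was 6.

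Members' events recurred between the libraries more often than events at large. At identical positions, 44.0% (37.6 to 50.6) of the members' DCRT-KO events were in the WT list and 67.4% (58.8 to 75.2) of their WT events were in the DCRT-KO list, against 30.6% and 35.7% of the whole lists. Among the hosts 95 of 217 DCRT-KO events recurred in WT, or 43.8% (37.1 to 50.7). In the other direction 83 of their 95 WT events recurred in the longer DCRT-KO list, or 87.4% (79.0 to 93.3). GAS5, SNHG1 and SNHG29 gave most of these 83, while SNHG14 shared 0 of its 2 WT events, SNHG5 1 of 2 and SNHG32 1 of 4. The other members shared 8 of 17 DCRT-KO events and 8 of 40 WT events. Counting each position once, the members had 222 distinct events, 71 found in both libraries, 111 only in DCRT-KO and 40 only in WT.

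**Figure D4:**
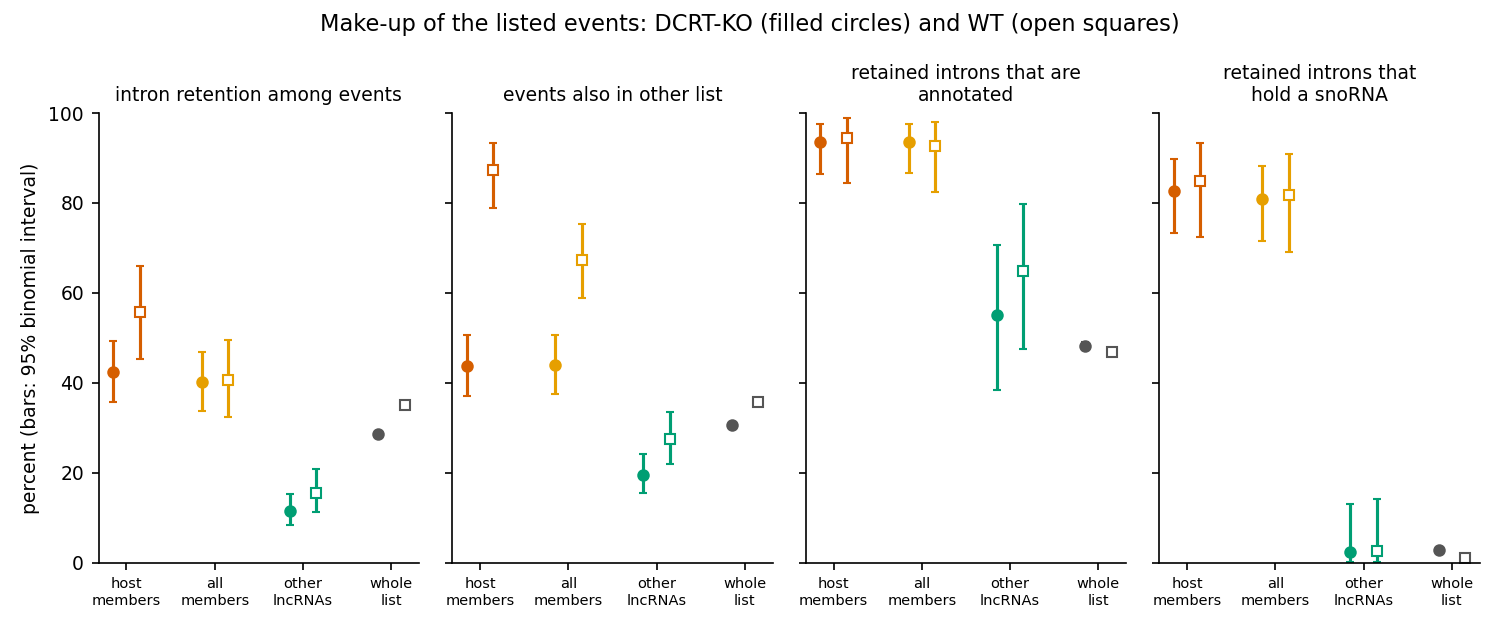
Shares of listed events in percent, with exact binomial 95% intervals, for the snoRNA hosts, all members, other long non-coding genes and the whole lists; filled circles are DCRT-KO and open squares WT. Retained introns that hold a snoRNA make up 82.6% and 84.9% for the hosts and 2.76% and 1.07% for the whole lists. The hosts were defined by a snoRNA in their span, so a difference in this direction was set by that definition.

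The members also differed in what supports an event. In 22.6% (17.4 to 28.6) of the members' DCRT-KO events and 18.5% (12.4 to 26.1) of their WT events both forms were carried by annotated transcripts alone, against 3.44% and 3.41% of the whole lists. Library isoforms lay behind both forms in 57.7% (51.1 to 64.1) and 56.3% (47.5 to 64.8), against 85.3% and 84.8%. With such events alone the hosts had 125 in DCRT-KO and 52 in WT, a ratio of 2.40 (1.73 to 3.39), and the other members 10 and 24. PTBP1, the RNA-binding protein named with DCRT in the series title, had 15 events in DCRT-KO and 7 in WT.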

How the data were processed

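Total RNA of AC16 cells was sequenced, 1 DCRT-KO and 1 WT library; per the labels the series' design text names PacBio long reads while the extract protocol describes short reads. Per the file headers, the deposited tables list events by type, gene, positions and transcripts on each form, with no values. The aligner was minimap2 and the build hg38, as stated per the submitters' processing notes; for the isoform builder, event caller, annotation release and filters, no name is given in the sources used here. Events were parsed with Python 3.11.15 and pandas 2.3.3, and intervals came from SciPy 1.17.1; the parser was tested on simulated data. Introns, exons and printed sequences came from GENCODE v29, and snoRNA positions from RefSeq (GRCh38.p14). The members and lists were chosen with earlier results of these data known. All 34 members are named, and those with at least 10 events described in full. With 1 library per group no test was possible; alternatives varied rows, support, gene assignment and members. Sequences were read from transcripts that cover the region. Of 8028 identifiers 8021 had a symbol.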

Additional observations from a re-analysis of the deposited data

How the results depend on the processing

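No paired analysis was possible because there is 1 library per genotype and no result comes from a test. No replicate could be left out. As raw numbers of events, not scaled to the length of the lists, the members' ratio ranged from 1.47 without SNHG17 to 1.93. That upper value was found where each form needed 2 or more library isoforms. The hosts' ratio ranged from 1.93 without SNHG17 to 2.85 without GAS5, and that of the other members from 0.25 to 0.619. The 0.619 was by span and any identifier, which counts events listed under JPX in the span of FTX. No ratio crossed 1. Counting each main result once under each alternative setting, 148 values stayed near the main value and 28 moved, and the cause was not tested. The order of the libraries turned for retention without GAS5 (34.04% in DCRT-KO and 29% in WT) and without SNHG17 (45.6% and 40.5%). For skipping it turned with both forms in library isoforms (25.9% and 25%), and with repeated rows also counted once (31.5% and 30%). It also turned for skipping where each form needed 2 or more library isoforms (37.9% and 26.7%). For snoRNA introns it turned with both forms and repeated rows once (85% and 84.6%), and with GENCODE values, given below. By span and any identifier FTX counted 8 and 3 events, but 8 and 2 of these were listed under JPX on the other strand. Where each form needed 2 or more library isoforms, 4 members (4 hosts, 0 others) had more events in DCRT-KO and 3 (all others) in WT, 2 and 0 members passed 2-fold, the shared part of DCRT-KO 65.5%, and the share of snoRNA introns 92.3% and 100%. With both forms in library isoforms, retention in WT was 53.9%, skipping in WT 25%, 1 member passed 2-fold in WT and 1 non-host had more events in DCRT-KO; with repeated rows also counted once these last counts were 1 and 1 again, and the shared part of WT was 56.7%. Without GAS5, WT retention was 29%, WT skipping 44%, and the shared parts 36.2% in DCRT-KO and 58% in WT. Per 10000 events of the list, 2 hosts (SNHG16 and SNHG32) had more in WT. By span and any identifier, 4 non-hosts had more events in DCRT-KO. Among them were FTX, through events listed under JPX, and CYTOR, through 1 event listed under NCAL1. At a minimum of 10 events 1 of 10 members passed 2-fold in WT, against 15.1% of 2525 genes. The other counts past 2-fold in this paragraph have no share over all genes beside them. By overlap, the shared part of DCRT-KO was 56.0%. With the snoRNAs of GENCODE v29, which lacks those of GAS5 in the annotation used, the shares of snoRNA introns were 48.9% and 35.8%. All settings on hosts alone, without GAS5 or SNHG17, on the strand, on GENCODE snoRNAs, on host introns without GAS5 and SNHG1 and on 2 choices together were chosen after seeing the data.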

Other observations

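A further list of 45 long non-coding RNA genes, chosen as the same kind of gene, held 18 listed genes, of which 9 had more events in DCRT-KO, 6 had more in WT and 3 had equal numbers, with 56 events against 39. The 3 with at least 10 events were LINC00667 with 15 in DCRT-KO and 4 in WT, PSMA3-AS1 with 3 and 8, and JPX, a non-coding gene of the X-inactivation centre, with 8 and 2. Among the other protein-coding snoRNA hosts, retention events with a snoRNA numbered 30 in DCRT-KO and 10 in WT for RPL3, 18 and 12 for RPS3, and 21 and 3 for NOP56, a core protein of box C/D snoRNA particles.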
